A study of Rattus norvegicus with 4 samples.

Results

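The genes described here encode hydrolases and oxygenases that act on drugs, toxins and lipids in liver: the epoxide hydrolases Ephx1 and Ephx2, the flavin monooxygenases Fmo1 and Fmo5, the carboxylesterases listed as Ces1 and Ces3, and the arylacetamide deacetylase Aadac. They were taken as all probe sets whose annotation gives 1 symbol equal to a listed name, older names included. Of the 7 listed genes, 6 had a probe set, with 1 probe set each, among the 10412 genes that the arrays measured with an own probe set. Ces1 and Ces3 were found under an older name and are called Ces1e and Ces1d here, their current RefSeq symbols. No probe set carried the symbol Fmo5, and it is not analysed here.

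Liver RNA came from 4 male rats of the outbred Sprague-Dawley stock, which had received no treatment and were 10 to 12 weeks old, with 1 Affymetrix array per rat. The study as a whole deals with drug-detoxifying enzymes of the endoplasmic reticulum. All 4 rats form 1 group, so there is no contrast and no test between groups, and the values below are descriptions. Each animal had 1 array, so differences between animals and between arrays cannot be told apart, and the small number of arrays limits the precision.

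Epoxide hydrolases add water to reactive epoxides, which P450 enzymes form from drugs, pollutants and fatty acids, and so turn them into diols. Ephx1 is the microsomal enzyme and Ephx2 the soluble enzyme that also acts on fatty acid epoxides. Flavin monooxygenases use a bound flavin to oxidise nitrogen and sulfur atoms of drugs. Carboxylesterases and Aadac are serine hydrolases of the endoplasmic reticulum that split esters and amides, including prodrugs and stored lipid.

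Promoters are shown first for Ephx1, whose signal differed most between the rats, and for 3 carboxylesterase genes that lie side by side on rat chromosome 19 but differed in how far their signals moved between animals. All are from RefSeq on GRCr8, run 5′ to 3′ on the gene's strand, and hold 250 bases before and 50 bases from the annotated start. The RefSeq table gave 2 starts for Ephx1. The first lies at chr13:95275803-95276102 and the second at chr13:95263068-95263367, both on the minus strand. Capitals in the Ephx1 sequences mark matches, on either strand, to TGACNNNGC (the core of the antioxidant response element), AGGTCA (a hexamer that nuclear receptors bind), TATAAA (the TATA box) and TGAGTCA (an AP-1 site). These motifs were chosen after the sequences and values were seen.
Ephx1 first start: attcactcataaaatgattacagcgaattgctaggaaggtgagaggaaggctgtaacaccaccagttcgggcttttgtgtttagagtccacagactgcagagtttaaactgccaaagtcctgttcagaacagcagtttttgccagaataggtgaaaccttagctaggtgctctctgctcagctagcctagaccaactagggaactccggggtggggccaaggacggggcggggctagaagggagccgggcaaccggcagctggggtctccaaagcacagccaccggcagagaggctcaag
Ephx1 second start: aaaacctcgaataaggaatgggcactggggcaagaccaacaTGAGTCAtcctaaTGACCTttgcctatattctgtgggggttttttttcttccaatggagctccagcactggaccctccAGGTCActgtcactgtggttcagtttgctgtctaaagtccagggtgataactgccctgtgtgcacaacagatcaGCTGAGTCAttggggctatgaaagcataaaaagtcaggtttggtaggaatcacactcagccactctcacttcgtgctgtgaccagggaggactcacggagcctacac

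The first Ephx1 window held none of the 4 motifs. The second held TGAGTCA at 209 and 55 bases before the start, AGGTCA in reverse at 196 and forward at 131 bases before it, and TGACNNNGC in reverse at 57 bases before it. The last of these overlaps the nearer TGAGTCA, so the pair is not independent. Over all 33469 promoter windows of the same length, 12.1% held TGACNNNGC, 16.2% AGGTCA, 14.2% TATAAA and 4.63% TGAGTCA. The windows of Fmo1 and Aadac held none of the 4 motifs. A match describes letters only, and the probe set of Ephx1 does not say which start was used.

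The order along chromosome 19 was Ces1f, Ces1e, Ces1d, Ces1c, Ces1a. The windows lie at chr19:30005923-30006222 for Ces1e, chr19:30046244-30046543 for Ces1d and chr19:30099197-30099496 for Ces1c, all on the plus strand. Capitals mark GTAAACTCT, the longest word that all 3 windows share on the printed strand.
Ces1e: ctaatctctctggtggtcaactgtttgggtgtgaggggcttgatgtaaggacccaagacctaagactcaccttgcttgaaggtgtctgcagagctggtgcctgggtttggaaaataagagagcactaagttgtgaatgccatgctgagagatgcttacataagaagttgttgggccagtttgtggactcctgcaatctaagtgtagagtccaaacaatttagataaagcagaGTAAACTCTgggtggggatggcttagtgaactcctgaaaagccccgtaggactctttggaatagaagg
Ces1d: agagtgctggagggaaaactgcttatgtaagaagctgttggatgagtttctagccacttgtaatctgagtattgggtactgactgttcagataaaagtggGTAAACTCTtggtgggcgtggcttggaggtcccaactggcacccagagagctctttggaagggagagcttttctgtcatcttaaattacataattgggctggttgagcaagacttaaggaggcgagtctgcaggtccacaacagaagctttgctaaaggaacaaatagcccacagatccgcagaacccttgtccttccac
Ces1c: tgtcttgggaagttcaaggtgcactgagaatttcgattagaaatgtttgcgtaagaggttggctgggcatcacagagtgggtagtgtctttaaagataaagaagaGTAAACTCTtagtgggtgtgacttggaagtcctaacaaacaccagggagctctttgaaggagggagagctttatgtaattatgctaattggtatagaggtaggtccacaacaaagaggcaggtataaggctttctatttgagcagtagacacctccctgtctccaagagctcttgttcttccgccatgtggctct

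The shared word of 9 letters began 150 bases before the start of Ces1d, 145 before that of Ces1c and 18 before that of Ces1e. Searched on both strands, it was present in 78 of the 33469 windows, or 0.233%. The probes' own sequences are not used here, so signal from a related carboxylesterase transcript cannot be separated from that of the named gene.

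Signals are log2 values, so a difference of 1 is a change of 2-fold, and values are given as mean ± SD over n = 4 rats. A gene was called above background if its mean exceeded 8.25, the 95th percentile of the means of 72 probe sets, for 58 genes typical of the eye, testis, muscle or brain. The call compares signals of different probe sets, which depend on their probes, so it describes signal and not amount of transcript. Of the 6 member genes 5 were above background, against 50.2% of all 10412 genes. With Myh1, a muscle myosin with bright probe sets, kept in the list the level was 9.25, and the same 5 genes were above it. The share of all genes above 9.25 was not computed. It is at most the 50.2% found above 8.25, and the upper quartile over all probe sets was below 9.25 on every array.

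**Figure D1:**
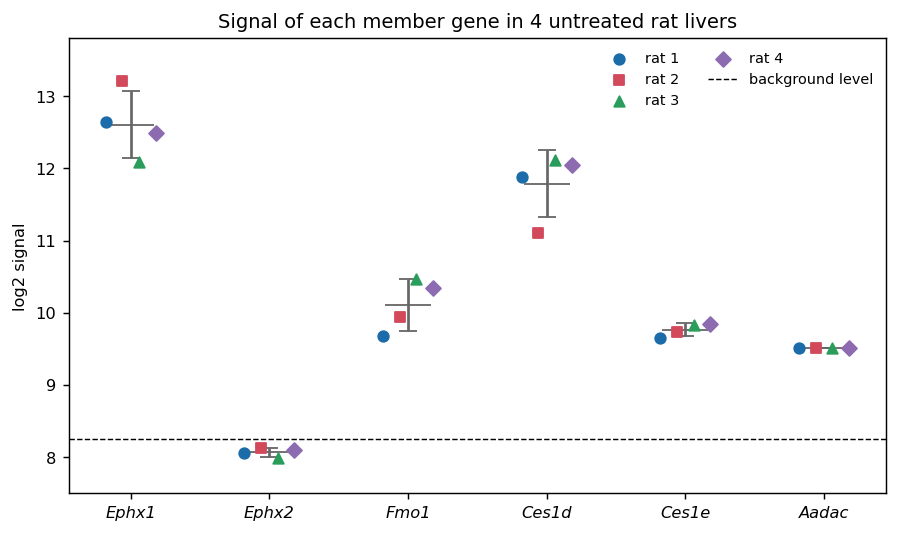
Log2 signal (y axis) of the 6 member genes (x axis) in the 4 rats (coloured points), with the mean and SD as grey bars and the background level of 8.25 as a dashed line. Ephx2 lies below the line in all 4 rats, Aadac is level across the rats, and Ephx1, Fmo1 and Ces1d spread most.

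Ephx1 had signals of 12.64, 13.21, 12.08 and 12.49 in rats 1 to 4. Rat 2 was highest, rat 3 lowest, and the other two lay near the mean. The mean was 12.61 ± 0.47 (SD, n = 4), and the highest and lowest rat differed by 1.13, or 2.19-fold. Its SD exceeded those of 97.1% of the 1000 probe sets nearest to it in mean signal, whose median SD was 0.069. Probe sets with equal values in all rats were kept among the 1000, here and below. This raises such percentages and lowers the medians beside them. Without rat 2 the range of Ephx1 was 0.55, and without rat 3 it was 0.73.

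Ephx2 had signals of 8.06, 8.13, 7.99 and 8.10, with a mean of 8.07 ± 0.06 (SD, n = 4). All 4 values were below background, with rat 2 again highest and rat 3 again lowest, but over a range of only 0.14. The highest of 27 control probe sets for Bacillus transcripts, which rat liver does not make, had a mean of 7.75. Against that lower level Ephx2 would count as above background, and 6 of 6 members would. A signal under background therefore does not show that the Ephx2 transcript was absent. The share of all 10412 genes above 7.75 was not computed. It is at least the 50.2% found above 8.25, and every array median also lay above 7.75. Without that share, the count of 6 of 6 cannot be set against other genes. The SD of Ephx2 exceeded those of 86.9% of the 1000 probe sets of like signal, whose median was 0.014.

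Fmo1 had signals of 9.68, 9.94, 10.47 and 10.34. Rats 3 and 4 were both higher than rats 1 and 2, with a mean of 10.11 ± 0.36 (SD, n = 4) and a range of 0.79, or 1.73-fold. Its SD exceeded those of 96% of the 1000 probe sets of like signal (median 0.061). Leaving out any 1 rat left a range of at least 0.53. The difference between the 3' and 5' signal of beta-actin, a measure of RNA length, was 0.85, 0.63, 0.54 and 0.66 in rats 1 to 4. It was highest in rat 1, where Fmo1 was lowest, and lowest in rat 3, where Fmo1 was highest, but rats 2 and 4 did not follow this order. For Gapdh the same difference was 0.48, 0.52, 0.54 and 0.54, and the part of RNA quality in the Fmo1 values was not tested.

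Ces1d, a carboxylesterase that also hydrolyses triglyceride in liver, had signals of 11.88, 11.11, 12.12 and 12.04. Rat 2 was lowest and the other 3 rats lay within 0.24 of each other. The mean was 11.79 ± 0.46 (SD, n = 4) and the range 1.01, or 2.02-fold. Its SD exceeded those of 96.8% of the 1000 probe sets of like signal (median 0.072). Without rat 2 the range was 0.24, so it rested on that rat, the same animal in which Ephx1 was highest.

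Ces1e, its neighbour on the chromosome, had signals of 9.66, 9.74, 9.83 and 9.85, with a mean of 9.77 ± 0.09 (SD, n = 4). Rat 1 was lowest and rat 4 highest, over a range of 0.19, and rat 2 did not stand apart. Its SD exceeded those of 69.2% of probe sets of like signal, where the median was 0.054.

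Aadac had a signal of 9.51 in each of the 4 rats, with values equal to within 0.001. Such flat values were found in 35.2% of the 5231 genes above background, so the absence of spread describes the deposited values and not the animals. No between-rat statement can be made for Aadac.

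Of the 6 members, 3 (Ephx1, Fmo1 and Ces1d) had a between-rat range of at least 0.5, against 2.42% of all genes. Among genes above background these were 3 of 5 members, against 4.34%. A range of at least 1 was found for 2 of 6 members and 0.538% of all genes, or 2 of 5 members and 1.03% of genes above background. The shares of 4.34% and 1.03% include flat genes, 35.2% of those above background, here and below. Flat genes cannot reach such a range, so both shares are lower than among genes that are not flat. The 5 members likewise include the flat Aadac. The median range was 0.79 over the 5 members above background and 0.071 over all genes above background, or 0.125 without flat genes. With 6 members, and some of their values known when they were listed, these shares are a description.

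**Figure D2:**
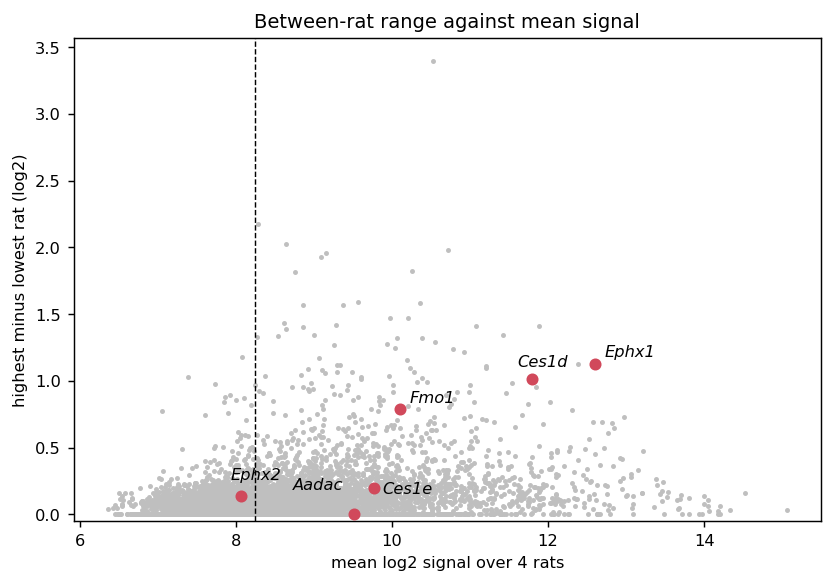
Highest minus lowest rat in log2 units (y axis) against mean log2 signal (x axis) for all named genes (grey, each by its brightest probe set) and the 6 members (red), with the background level of 8.25 as a dashed line. Ephx1 (1.13), Ces1d (1.01) and Fmo1 (0.79) have the largest ranges of the members, Ephx2 (0.14) and Ces1e (0.19) have smaller ones, and Aadac is flat.

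The 3 members with a range of at least 0.5 followed 3 different orders of the rats. From lowest to highest the order was 3, 4, 1, 2 for Ephx1, 1, 2, 4, 3 for Fmo1 and 2, 1, 4, 3 for Ces1d, and it was the same with arrays centred on their medians or quantile normalized. Rat 3 was thus lowest for Ephx1 and highest for Fmo1 and Ces1d. Over the 3391 genes above background that were not flat, rat 3 was lowest for 18.5% and highest for 33%, and rat 2 was lowest for 28.8% and highest for 21.5%. Rat 1 was lowest for 29.5%, and rat 4 was lowest for 23.2% and highest for 20.7%. Ephx1 was therefore extreme in the rarer direction in both of these rats.

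For each of these 3 members the 3 genes with the nearest pattern were taken by the root mean square difference of the deviations from their own means over the 4 rats. With 5230 other genes above background and 4 values each, some near patterns arise by number alone. For Ephx1, whose own root mean square deviation was 0.41, they were Gstm1, a glutathione transferase, at a difference of 0.23, Slc17a3, a membrane transporter, at 0.23 and Aldh1a1, a retinaldehyde dehydrogenase, at 0.25. Gstm1 had signals of 12.41, 12.79, 12.30 and 12.37, with rat 2 highest and rat 3 lowest as for Ephx1. Aldh1a1 had 9.17, 9.43, 8.58 and 9.40, again with rat 2 highest and rat 3 lowest. The smallest of these differences, 0.23, was large beside Ephx1's own deviation of 0.41.

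For Fmo1 (own deviation 0.31) the nearest pattern was that of Gcdh, the glutaryl-CoA dehydrogenase of lysine breakdown, at 0.039. Gcdh had signals of 10.60, 10.87, 11.34 and 11.18, the same order of rats. Atox1, a copper chaperone, followed at 0.070 and Pim3, a kinase, at 0.111. For Ces1d (own deviation 0.40) the nearest were the sterol synthesis enzyme Msmo1 at 0.099, the sterol regulator Insig1 at 0.143 and Decr1, an enzyme of fatty acid oxidation, at 0.155. Insig1 had signals of 10.52, 9.62, 10.68 and 10.30 and Decr1 10.66, 10.13, 10.77 and 10.69, and both were lowest in rat 2.

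**Figure D3:**
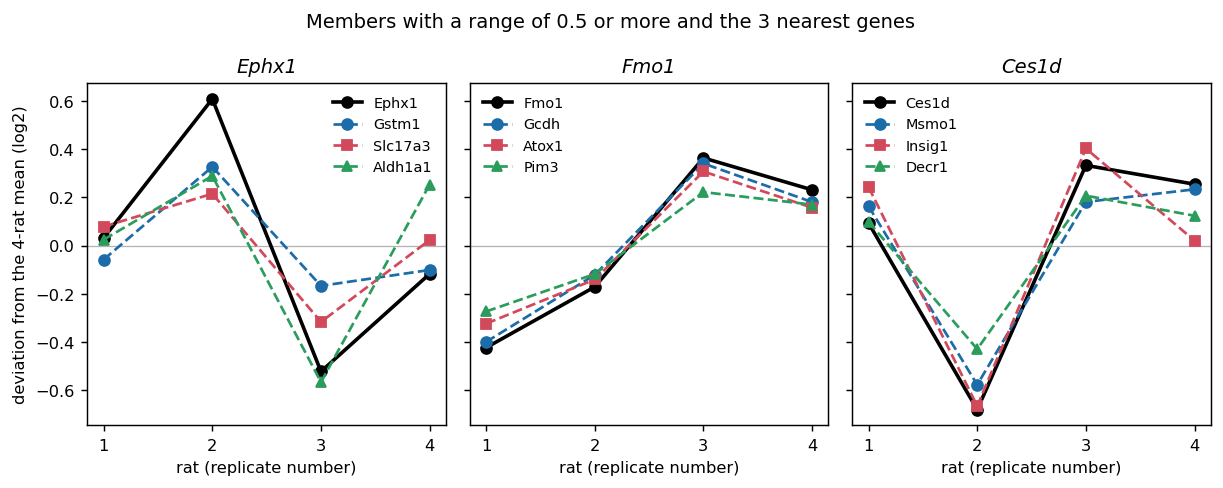
Deviation from the 4-rat mean in log2 units (y axis) in each rat (x axis) for Ephx1, Fmo1 and Ces1d (black) and the 3 genes nearest in pattern to each (coloured). Lines only join the values of 1 gene. The genes near Fmo1 and Ces1d run close to them, while those near Ephx1 reach at most about 0.33 in rat 2, against 0.61 for Ephx1.

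Of the other genes of these families, 2 carboxylesterases had a probe set of their own and both were above background. Ces1c, a secreted plasma carboxylesterase and the other neighbour of Ces1d, had signals of 12.93, 13.07, 12.94 and 13.04, with a range of 0.14. Rat 2, in which Ces1d was lowest, was the highest for Ces1c. Ces2c, of the second carboxylesterase subfamily, had 8.70, 8.68, 8.60 and 8.69. Neither passed a range of 0.5, nor did Ces1e, so the low signal of rat 2 was seen for Ces1d and not for these 3 relatives. With Myh1 kept in the background list, 1 of the 2 was above background. A further probe set, which the annotation assigns to 2 carboxylesterase genes, was lowest in rat 2 and highest in rat 3, as Ces1d was. Its signals were 10.47, 10.24, 10.51 and 10.37, over a range of 0.27.

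**Figure D4:**
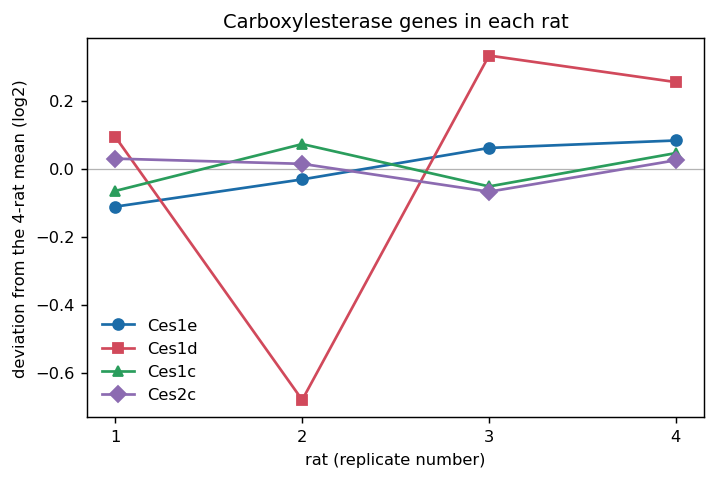
Deviation from the 4-rat mean in log2 units (y axis) of 4 carboxylesterase genes in each rat (x axis). Lines only join the values of 1 gene. Ces1d falls to -0.68 in rat 2, while Ces1c, Ces1e and Ces2c stay within 0.112 of their means.

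None of the 3 other listed flavin monooxygenases had a probe set of its own. Of the listed epoxide hydrolases 1 did, Lta4h, which makes leukotriene B4 from an epoxide, with signals of 8.89, 8.77, 8.92 and 8.78. Other esterases and lactonases, such as the paraoxonase Pon1 (12.63, flat), were above background for 9 of 11 genes, or 5 with Myh1 kept in the background list. None of these 9 had a range of at least 0.5. The largest ranges were those of Mgll, which splits monoglycerides, at 0.27 (8.96 ± 0.11, SD, n = 4) and Esd, an esterase of the cytosol, at 0.27 (10.40 ± 0.12, SD, n = 4).

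P450s were listed for the formation of epoxides, the substrates of Ephx1 and Ephx2, but the list also holds fatty acid hydroxylases of the Cyp4 family. Of its 11 genes 10 were above background (50.2% of all genes), and 4 of them had a range of at least 0.5 (4.34% of genes above background). The fatty acid hydroxylases Cyp4a3 (11.06, 9.77, 10.35 and 11.04) and Cyp4a1 (10.59, 9.34, 9.95 and 10.30) had the largest ranges. Of the 10 genes 7 were lowest in rat 2, the animal with the highest Ephx1 signal, against 28.8% of the 3391 genes above background and not flat. The Cyp4 genes Cyp4a1, Cyp4a3 and Cyp4f4 were among these 7. Cyp2c11 was lowest in rat 4, Cyp2c13 in rat 3 and Cyp2j3 in rat 1, so the count does not describe epoxide-forming P450s alone. The electron donors of P450s were above background for 4 of 4 genes, with P450 reductase (Por) at 9.52, 9.25, 9.68 and 9.04, and Cyb5b, a cytochrome b5 of the mitochondrial outer membrane, at 9.33, 9.22, 9.71 and 9.51.

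Genes linked to the receptors CAR and PXR, which mediate drug induction, were above background for 13 of 17 (50.2% of all genes), and 5 of these had a range of at least 0.5 (4.34% of genes above background). Ugt2b1, a glucuronosyltransferase, had 10.57, 10.58, 9.02 and 10.84, so it shared its lowest rat, rat 3, with Ephx1. Cyp3a9, a drug-oxidising P450, had 9.08, 8.55, 9.82 and 9.57 and was lowest in rat 2. Of the 12 genes of this list that were above background and not flat, 4 were lowest in rat 3, against 18.5% of the 3391 genes. In the direction opposite to Ephx1, 5 of the 12 were lowest in rat 2 and 5 highest in rat 3, against 28.8% and 33%. Only Gstm1 and Aldh1a1, 2 of the 12, were highest in rat 2, which is no more than the 21.5% of the 3391 genes.

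Genes linked to NRF2, the factor of the antioxidant response, were above background for 13 of 15, or 7 with Myh1 kept in the background list. Nqo1, a quinone reductase, had 9.94, 8.48, 7.91 and 8.23, and Osgin1, a growth inhibitor induced by oxidative stress, had 12.02, 10.36, 10.03 and 10.48. Both were highest in rat 1 and lowest in rat 3. Of the 9 genes that were not flat, 7 were highest in rat 1, against 24.8% of the 3391 genes above background and not flat. Ephx1 shared the lowest rat of Nqo1 and Osgin1 but not the highest, since it lay at 12.64 in rat 1.

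Genes linked to PPAR alpha, the fatty acid receptor, were above background for 11 of 15. Of the 10 that were not flat, 9 were lowest in rat 2, as Ces1d was, against 28.8% of the 3391 genes, with a median deviation there of -0.20 over the 11 genes. Angptl4, an inhibitor of lipoprotein lipase, had 9.24, 8.19, 9.07 and 9.53. Decr1 belongs to this list and Cyp4a1 and Cyp4a3 to both this and the epoxide list, so these counts overlap.

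Marker lists were read in the same arrays. Hepatocyte markers were above background for 9 of 9 genes, among them albumin (Alb) at 15.06, and bile duct markers for 0 of 4. Of the 9 hepatocyte markers 4 were lowest in rat 1 and 3 highest in rat 3, as Fmo1 was, against 29.5% and 33% of the 3391 genes. Another 4 of them were lowest in rat 3 and 3 highest in rat 2, as Ephx1 was, against 18.5% and 21.5%. After quantile normalization 6 hepatocyte markers were lowest in rat 1 and 2 in rat 3. Tat, a tyrosine aminotransferase, and the pericentral marker Oat, an ornithine aminotransferase, had Fmo1's lowest and highest rats, with 9.52, 10.53, 11.10 and 10.30 for Tat and 9.76, 10.39, 11.08 and 10.32 for Oat. Both were picked after the values were seen, and Oat was the only 1 of the 6 pericentral markers above background that was lowest in rat 1. Of 6 pericentral markers above background, 5 were lowest in rat 2, as Ces1d was, against 28.8% of the 3391 genes, with mean signals of 11.49, 11.34, 11.73 and 11.56 over the 6 in rats 1 to 4. Of 9 periportal markers above background, 8 of them not flat, 3 were lowest in rat 2, which is near that share. The pericentral genes Cyp2e1 and Cyp1a2 were already counted among the P450s lowest in rat 2. After quantile normalization these counts were 4 of 6 and 1 of 8. Stellate cell markers were above background for 5 of 10 genes, and 4 of these 5 were lowest in rat 3, as Ephx1 was, against 18.5%, with mean signals of 9.08, 9.32, 8.75 and 9.34. Kupffer cell markers were above background for 7 of 7, and 5 of the 6 that were not flat were highest in rat 2, as Ephx1 was, against 21.5%, with mean signals of 9.76, 9.98, 9.90 and 9.82. Endothelial markers were above background for 4 of 6 and blood cell markers for 2 of 6. Both of these blood markers were highest in rat 1, where Fmo1 was lowest, with 11.91, 11.27, 11.64 and 11.00 for the globin Hbb. The part of cell makeup in the values of Ephx1, Fmo1 and Ces1d was not tested. In whole liver, fewer cells of a type and less RNA per cell cannot be told apart.

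**Figure D5:**
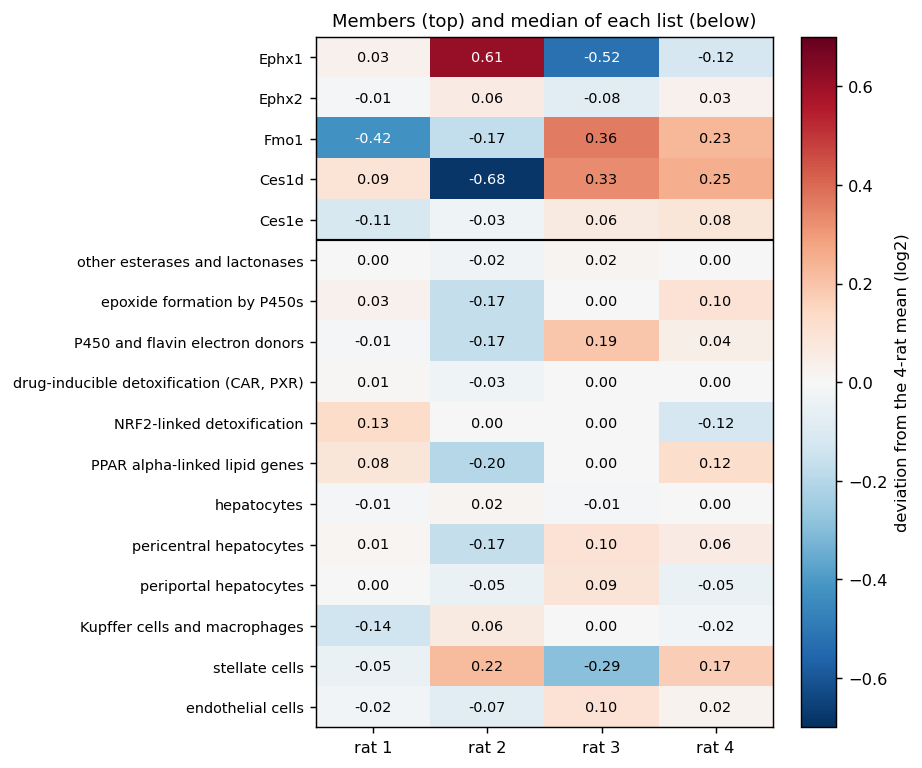
Deviation from the 4-rat mean in log2 units, as colour and number, of the 5 members that were not flat (top) and the median deviation of each gene list with at least 4 genes above background (below), in each rat (columns). Ephx1 is at 0.61 and Ces1d at -0.68 in rat 2, where the PPAR alpha list is at -0.20 and the stellate list at 0.22.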

How the data were processed

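Liver RNA of 4 rats in 1 group was measured on Affymetrix arrays, of type RAE230A per the file headers of the scanner settings (the labels name RAE230-2), all of 1 chip lot. The authors deposited 1 log2 signal per probe set and array, for 15923 probe sets, with 5.98 as the lowest and 15.07 as the highest value. GCRMA, RMA, affy 1.12.2 and R 2.4.1 are named in the submitters' processing notes. Which of GCRMA and RMA gave the values is not given in the sources used here. Array medians were all 8.11, so the authors had put the arrays on a common scale, and no further scaling was applied.

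Of the probe sets, 12789 carried 1 gene symbol, 312 several and 2822 none, and 12754 were matched by gene number to RefSeq's GRCr8 table, used for names and gene order. A gene was represented by its brightest probe set. The members and lists were chosen with earlier results of these data known, and Myh1 was left out of the background list for that reason. Named genes are all members, the 2 genes of each of 9 related lists with the largest range above background, and the 3 nearest patterns for members with a range of at least 0.5. Others (Ces1f and Ces1a for gene order, Pon1, Alb, Tat, Oat, Hbb, Cyp2e1, Cyp1a2, Cyp4f4, Cyp2c11, Cyp2c13 and Cyp2j3) were added as context after values were seen. Scripts used Python 3.11.15, numpy 2.4.6, pandas 2.3.3 and matplotlib 3.10.9 and were tested on simulated data. Alternatives covered the background level, probe set choice, scaling and each rat left out.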

Additional observations from a re-analysis of the deposited data

Results flagged for a closer look

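For 4 of the 29 genes examined, a single rat lay apart by a gap that was large for the range of the gene. The chance share of about 5% assumes genes not chosen on their values. Many of the 29 were chosen for a large range or a near pattern, so 4 of 29 cannot be set against that share. Ces2c was lower in rat 3 (8.60, against 8.68 to 8.70), a difference of small size. Ugt2b1 was lower in rat 3 (9.02, against 10.57 to 10.84), the rat in which Ephx1 was lowest. Msmo1 (9.64, against 10.38 to 10.45) and Decr1 (10.13, against 10.66 to 10.77) were lower in rat 2. These are 2 of the 3 genes picked for their nearness to Ces1d, whose own low value in rat 2 did not pass the same limit. Outside the named genes, a probe set that the annotation assigns to 2 carboxylesterase genes was above background, with a mean of 10.40. It had signals of 10.47, 10.24, 10.51 and 10.37, so rat 2 was lowest and rat 3 highest, as for Ces1d, over a range of 0.27.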

How the results depend on the processing

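With the 90th or 98th percentile of the background list, Myh1 kept in, the median probe set of each gene, or any 1 rat left out, 5 of 6 members were above background. With probe set IDs ending in s, x or a left out, 4 were, since the probe set of Ephx1 has such a suffix. The shares of all genes above background under these settings were not computed, so these counts describe the members only. The number of members with a range of at least 1 was 1 after quantile normalization, where Ces1d had 0.97, and 0 to 2 with 1 rat left out, against 2. It was 0 without rat 2 and 0 without rat 3. Over all genes the share with a range of at least 1 was 0.499% after quantile normalization and 0.298% to 0.432% with 1 rat left out, against 0.538%. Leaving out 1 rat gave ranges of 0.55 to 1.13 for Ephx1, 0.065 to 0.141 for Ephx2, 0.114 to 0.195 for Ces1e and 0.24 to 1.01 for Ces1d, the lowest without rat 2 for Ephx1 and Ces1d, without rat 3 for Ephx2 and without rat 1 for Ces1e. The number of members with a range of at least 0.5 was 2 without rat 2 and 3 without any other 1 rat. Over all genes that share was 1.73% without rat 2 and 1.62% to 1.94% without any other 1 rat. Aadac, flat as deposited, had a range of 0.0049 with each array centred on its median, and of 0.053 with a mean of 9.51 after quantile normalization, which follows from the rescaling itself. No member has another probe set to compare. No paired analysis was possible because there is 1 group. Signals near background, such as Ephx2, are limited by the background level chosen.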
